A study of Homo sapiens with 6 samples.

Results

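The CEP genes encode proteins named for the centrosome, the organelle that anchors microtubules and, in a resting cell, forms the base of the primary cilium. They were taken as every gene of the deposited table whose symbol is CEP followed by a number, with or without a final L. That gave 33 of 58219 genes, and the rule uses names alone, not measured values. The cells were IMR90, normal human diploid fibroblasts of the lung, that carry ER-RASG12V, an oncogenic RAS fused to a hormone-binding part of the oestrogen receptor. The fusion protein becomes active when 4-hydroxytamoxifen (4OHT) is added. The 3 libraries of 72 h, which the labels describe as committed to senescence, and the 3 libraries of 30 h, described as uncommitted controls, all came from cells of this genotype given 100 nM 4OHT. The titles give these groups as 3 days and 1.5 days. Because 1.5 days is longer than 30 h, the labels differ on the time of the control group, and hours are used here. No untreated cells and no uncommitted cells at 72 h are among the samples, so time under RAS and commitment cannot be told apart. The labels do not say whether the libraries A, B and C of a group were separate cultures. The p-values therefore cover the spread between these libraries, and that spread may be technical.

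A centrosome holds a pair of centrioles, barrels of microtubules surrounded by a protein matrix. In a cycling cell a new centriole grows beside each old one during S phase, under the kinase PLK4 and its scaffolds, and the duplicated centrosomes then form the poles of the mitotic spindle. The older, mother centriole carries distal appendages, which dock it at the membrane when a cilium forms, and subdistal appendages, which anchor microtubules. A flexible linker holds the centrioles together until mitosis, and small granules called satellites carry proteins to and from them. Diploid lung fibroblasts in culture use the centrosome for division and can grow a primary cilium when they stop cycling.

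Each library held 13221152 to 15703544 reads assigned to genes. Levels below are normalised counts, which are reads divided by a size factor of the library, and fold changes are limma estimates of 72 h over 30 h on log2(normalised count + 1) with their standard error. A gene is said to rise or fall where its Benjamini-Hochberg adjusted p over all 13315 genes tested was under 0.05. All libraries showed fibroblast markers, with COL1A1 and VIM among 12 of 12 tested, of which 1 rose and 8 fell, and their summed level lay between 112600 and 131892 normalised counts in the 72 h libraries, against 270585 to 287682 in the 30 h libraries. The share of these markers that fell was 66.7%, against a background of 25.0% of all genes tested. The part of this lower marker level in the results below was not tested. Of the markers of other cell types, most had few reads, but KRT18 averaged 547 normalised counts at 72 h and 657 at 30 h, and TEK 419.7 at 72 h and 767 at 30 h. KRT5, CDH5 and CD3E had no read, the 8 leukocyte markers summed to 11.2 to 17.8 normalised counts at 72 h and 9.14 to 37.0 at 30 h, and none of the 8 passed the filter on low values. Of 8 epithelial markers, 4 were tested, with 1 rise (CLDN4, log2 fold change 2.08) and 2 falls, and the list summed to 649.9 to 768 at 72 h and 748 to 858 at 30 h. Of 7 endothelial markers, only TEK was tested, which fell, and the list summed to 428 to 498 at 72 h and 674 to 938 at 30 h. The second principal component, with 6.99% of the variance, set the C library of each group apart from A and B.

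Most CEP transcripts that changed were lower at 72 h. All 33 genes passed the filter of 10 normalised counts in 3 libraries. Of these 33, 18 fell, 3 rose and 12 were not called, where 48.6% of all genes tested were called in either direction. The share that fell was 54.5%, against a background of 25.0% of all genes tested, and the share that rose was 9.09%, against 23.6%. The median log2 fold change was -0.30, against 0.01 over all genes tested. Values of the 72 h libraries lay wholly below those of 30 h for 19 of the 33 (background 29.9%) and wholly above for 3 (background 29.3%). A fall of at least 2-fold was seen for 4 genes, CEP55, CEP128, CEP112 and CEP152, where 6.70% of all genes tested fell that far. Without both libraries of letter C the counts were 17 lower and 3 higher, and with single libraries left out 13 to 18 were lower. In bulk RNA, fewer cells in a given cell cycle phase and less RNA per cell cannot be told apart.

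**Figure D1:**
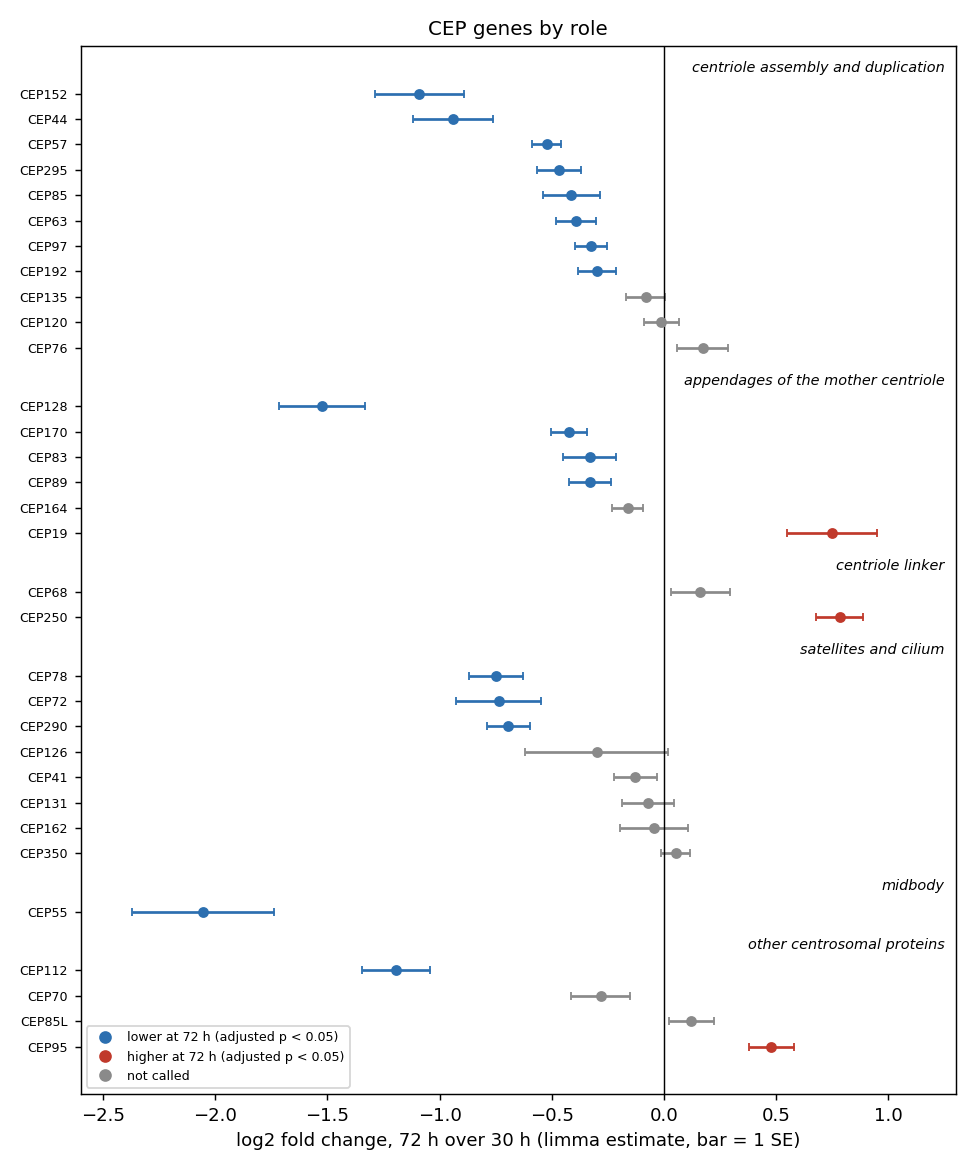
Log2 fold change of 72 h over 30 h for the CEP genes reported one by one, grouped by role, with 1 SE (limma, 3 libraries per group). CEP55 lies farthest to the left at -2.05, and the 3 genes to the right that were called are CEP250, CEP19 and CEP95.

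CEP55 had the largest change. Its protein gathers at the midbody, the bridge between dividing daughter cells, and recruits the ESCRT machinery that cuts it. CEP55 (ENSG00000138180.15, chromosome 10, 93496632 to 93529092, GRCh38) had 288, 393 and 177 normalised counts in libraries A, B and C of 72 h, against 1371, 1103 and 961 in A, B and C of 30 h. The highest 72 h library, B, lay well below the lowest of 30 h, and library C was the lowest of each group. CEP55 averaged 286 ± 108 at 72 h and 1145 ± 208 at 30 h (SD, n = 3 each), and limma put the log2 fold change at -2.05 ± 0.318 (SE, adjusted p = 0.00386). MKI67, the proliferation marker Ki-67, showed the same order of libraries at 72 h, with 2394, 2659 and 1413 normalised counts in A, B and C of 72 h, against 6273, 5595 and 5140.0 in A, B and C of 30 h. CCNA2, the gene of cyclin A2, had 530.4, 628 and 358 in the libraries of 72 h, against 1405, 1397 and 1118 in those of 30 h. The part that the share of dividing cells had in the fall of CEP55 was not tested.

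Among genes that work with CEP55 in cytokinesis, falls outnumbered rises. Of 20 partners tested, 9 fell (45%, background 25.0%), 3 rose (15%, background 23.6%) and 8 were not called. Their median log2 fold change was -0.16. KIF20A, a kinesin of the central spindle, had 233, 284 and 122 normalised counts at 72 h, against 959, 841 and 812 at 30 h, and its log2 fold change was -2.11. The microtubule bundler PRC1 (-1.77), the ring scaffold ANLN (-1.73) and RACGAP1 (-1.44), a regulator of the cleavage furrow, fell as well. The call for RACGAP1 was lost with no filter on low values, at adjusted p = 0.0566. VPS4A, an ESCRT ATPase, also fell (-0.30, adjusted p = 0.0055), while VPS4B was not called (0.10). The ESCRT partners PDCD6IP (-0.17), CHMP3 (-0.15), CHMP2B (0.14), CHMP6 (0.06) and CHMP4A (0.39) were not called either. The 3 partners that rose, named after their values were seen, were CHMP2A, CHMP4B and TSG101, all ESCRT genes that also serve membrane traffic outside division, at log2 fold changes of 0.41, 0.26 and 0.19. TSG101 lost its call in 5 alternatives, among them the omission of 72 h replicate A, 72 h replicate B or 30 h replicate A (highest adjusted p = 0.101).

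The 11 CEP genes of centriole assembly and duplication gave 8 falls (72.7%, background 25.0%), 0 rises (background 23.6%) and 3 genes not called. Their median log2 fold change was -0.39. CEP152, the scaffold that brings PLK4 to the mother centriole (chromosome 15, 48712928 to 48811146), had 150.2, 139 and 88.1 normalised counts in A, B and C of 72 h, against 275, 288 and 227 in A, B and C of 30 h. The groups did not overlap, and C was the lowest library of each. CEP152 averaged 126 ± 33.0 at 72 h and 263 ± 32.1 at 30 h (SD, n = 3 each), with a log2 fold change of -1.09 ± 0.200 (SE) and adjusted p = 0.00235. CEP63 and CEP57, which form a ring with CEP152 around the centriole, fell less. CEP63 had 294, 287 and 267 at 72 h, against 399, 379 and 337 at 30 h, a log2 fold change of -0.39 (adjusted p = 0.00521). CEP57 (chromosome 11, 95789965 to 95832693) had 475, 479.6 and 450.0 at 72 h, against 693, 676 and 649.6 at 30 h, the tightest separation among these genes, with a log2 fold change of -0.52 ± 0.0649 (SE) and adjusted p = 0.000153. Differences in fold between these 3 genes were not tested.

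CEP44, needed for a new centriole to become a centrosome (chromosome 4, 174283677 to 174333380), had 71.5, 112 and 72.4 normalised counts at 72 h, against 171, 150.4 and 163 at 30 h. Library B was the high value at 72 h and still lay below all 3 of 30 h. The log2 fold change was -0.94 ± 0.178 (SE, adjusted p = 0.00181). Exons of CEP44 overlap those of FBXO8 on the opposite strand over 6.51% of their length, FBXO8 also fell (-0.86), and no source used here says whether reads were counted by strand. CEP295, which acts in the same conversion, had 353, 368 and 299 at 72 h, against 481, 498 and 429 at 30 h, with a log2 fold change of -0.47 (adjusted p = 0.00327). Every 72 h value lay below every 30 h value. Opposite-strand exon overlaps were also present for CEP295 (TAF1D, 2.63%), CEP290 (C12orf29, 3.86%), CEP63 (ANAPC13, 2.95%) and CEP76 (PSMG2, 7.6%). TAF1D, C12orf29, ANAPC13 and PSMG2 were not called.

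The other falls of this group were smaller. CEP85, which promotes PLK4 activity by binding STIL, had 191, 214 and 157 normalised counts at 72 h, against 261, 260.1 and 225 at 30 h, and its log2 fold change was -0.41 (adjusted p = 0.0224). That call was lost without 72 h replicate A, 72 h replicate C, 30 h replicate A or 30 h replicate B (adjusted p = 0.0542, 0.0601, 0.0797 and 0.0802). CEP97, which caps the growing centriole with CCP110, fell by 0.32 on the log2 scale. CEP192, the scaffold for centrosome maturation, fell by 0.30, a call lost without 72 h replicate A, 30 h replicate A or 30 h replicate B (adjusted p = 0.0685, 0.0766 and 0.0621). The 3 genes not called were CEP135, a cartwheel protein, CEP120, which acts in centriole elongation, and CEP76, which limits reduplication, at log2 fold changes of -0.08, -0.01 and 0.17. The sign for CEP120 turned positive with quantile normalisation, at 0.03.

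Among genes outside the CEP names that act in centriole duplication, falls outnumbered rises. Of 20 tested, 11 fell (55%, background 25.0%), 3 rose (15%, background 23.6%) and 6 were not called. Their median log2 fold change was -0.38. PLK4, the kinase that starts duplication, had 283, 296 and 169.9 normalised counts at 72 h, against 697, 603 and 542 at 30 h (log2 fold change -1.33, adjusted p = 0.00356). STIL and SASS6, which build the cartwheel of the new centriole, fell with log2 fold changes of -1.05 and -0.75, and POC1A, a protein of the centriole wall, with -1.44. The 3 that rose, named after their values were seen, were WDR90, SPICE1 and CETN2, all centriole proteins, at 0.52, 0.40 and 0.37. Without 72 h replicate A, CETN2 alone of the list rose. SPICE1 also lost its call without 72 h replicate B, 30 h replicate A or 30 h replicate B (highest adjusted p = 0.103). Some falls were no firmer. PPP1R35 and CNTROB lost their call in several alternatives, among them the authors' deposited statistics (highest adjusted p = 0.161 and 0.0851). USP33 lost its call without 30 h replicate B (adjusted p = 0.0573).

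**Figure D2:**
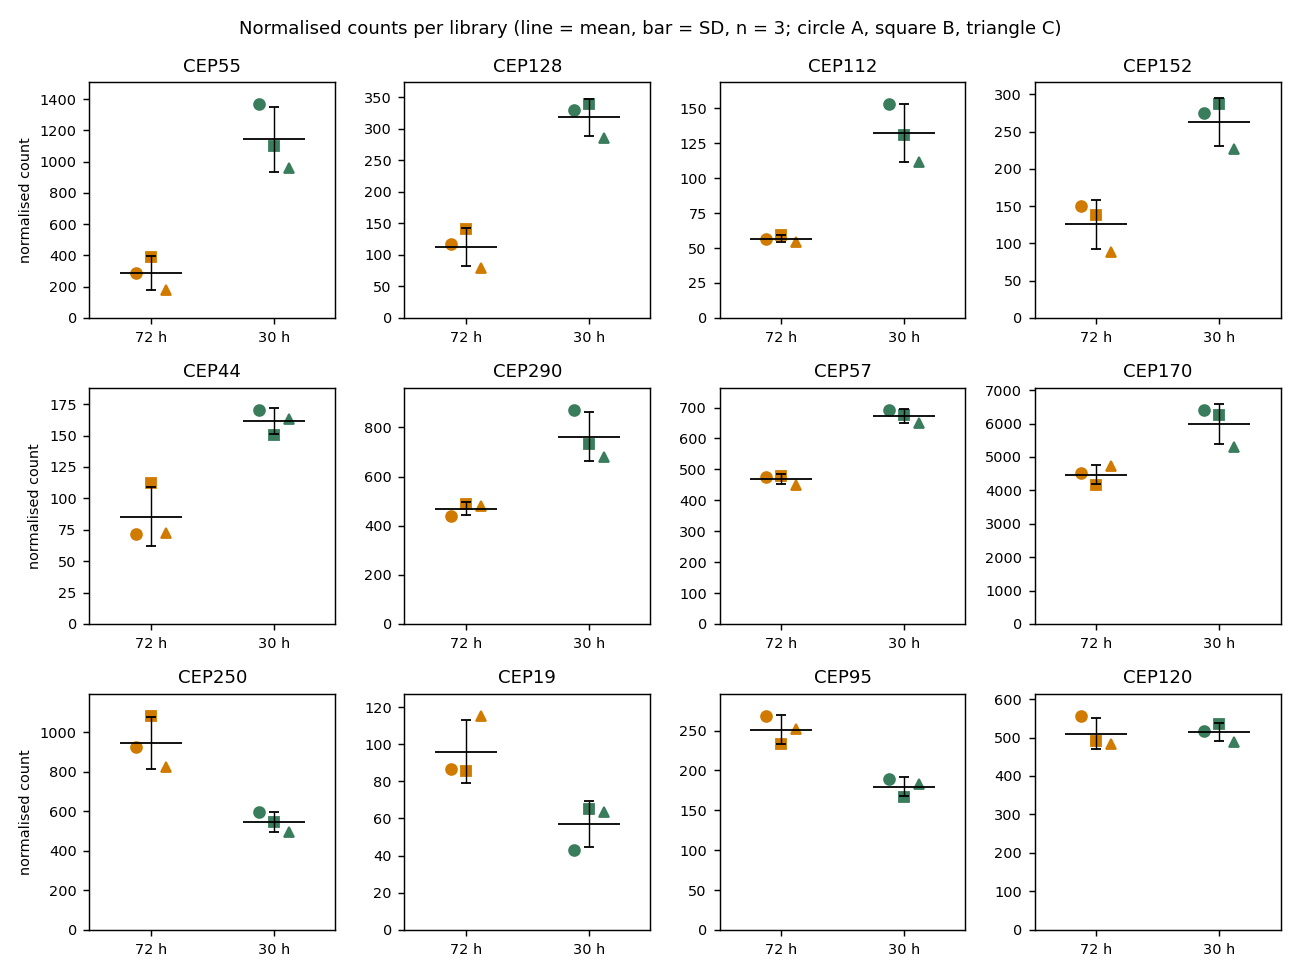
Normalised counts of 12 CEP genes in each library, 72 h left and 30 h right, with the mean (line) and SD (bar) of 3 libraries. CEP55, CEP128, CEP112, CEP152, CEP44, CEP290, CEP57 and CEP170 are lower in every 72 h library, CEP250, CEP19 and CEP95 are higher in every 72 h library, and CEP120 overlaps.

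Genes of the mother centriole's appendages went in both directions. Of 6, 4 fell (66.7%, background 25.0%), 1 rose (16.7%, background 23.6%) and 1 was not called. CEP128, a subdistal appendage protein (chromosome 14, 80476983 to 80959517), had 118, 140.4 and 79.7 normalised counts in A, B and C of 72 h, against 329, 339 and 285 in A, B and C of 30 h. The groups were far apart, and CEP128 averaged 113 ± 30.6 at 72 h and 318 ± 29.1 at 30 h (SD, n = 3 each). Its log2 fold change was -1.52 ± 0.193 (SE), with adjusted p = 0.000318. CEP170, a microtubule-binding protein of the same structure (chromosome 1, 243124428 to 243255348), had 4516, 4156 and 4740.0 at 72 h, against 6415, 6265 and 5313 at 30 h. The groups did not overlap, although 30 h replicate C came near the 72 h libraries, and the log2 fold change was -0.42 ± 0.0803 (SE, adjusted p = 0.00198). CEP170P1, a related pseudogene, averaged 17.5 ± 2.89 at 72 h and 32.0 ± 9.25 at 30 h (SD, n = 3 each), and how reads were split between the copies is uncertain.

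The CEP genes of the distal appendages had small changes. CEP83, which anchors these appendages, and CEP89 both had -0.33 as log2 fold change (adjusted p = 0.0397 for CEP83 and 0.0164 for CEP89). CEP83 lost its call in 9 of 16 alternatives, among them DESeq2 (adjusted p = 0.109) and the omission of 72 h replicate A, 72 h replicate C, 30 h replicate A or 30 h replicate B (adjusted p = 0.0527, 0.117, 0.0862 and 0.131). CEP89 lost its call without 72 h replicate A or 30 h replicate A, at adjusted p = 0.0741 and 0.073. CEP164, which recruits the kinase TTBK2 to start a cilium, had 499.7, 554.55 and 515 at 72 h, against 595, 554.70 and 606 at 30 h. The groups barely failed to overlap, and CEP164 was not called (log2 fold change -0.16, adjusted p = 0.0854). The distal appendage gene SCLT1, from the list of partners, had 135, 152 and 102 at 72 h, against 340.2, 367 and 346 at 30 h, and its log2 fold change was -1.45 ± 0.140 (SE, adjusted p = 3.16e-05). FBF1 and ANKRD26, also of the distal appendages, were not called (log2 fold changes 0.21 and -0.15).

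CEP19 was the appendage gene that rose. Its protein sits at the mother centriole with FGFR1OP and CEP350 and helps bring the small GTPase RABL2 to the base of the cilium. CEP19 (ENSG00000174007.7, chromosome 3, 196706277 to 196712293) had 86.9, 85.4 and 115 normalised counts at 72 h, against 42.9, 65.0 and 63.3 at 30 h. All 72 h values lay above all 30 h values, with the high value in C of 72 h and the low one in A of 30 h. The log2 fold change was 0.75 ± 0.200 (SE), with adjusted p = 0.0114. FGFR1OP, named after its value was seen, had 338, 369.7 and 299.99 at 72 h, against 180.3, 239 and 215 at 30 h (log2 fold change 0.67, adjusted p = 0.00147). CEP350 had 1220.1, 1081 and 1078 at 72 h, against 1076, 1069 and 1107 at 30 h, overlapped between groups and was not called (log2 fold change 0.05, adjusted p = 0.524).

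CEP250 had the largest rise. It encodes C-NAP1, a protein of the linker between centrioles, which the kinase NEK2 phosphorylates to release the linker before mitosis. CEP250 (ENSG00000126001.15, chromosome 20, 35455164 to 35519280) had 924, 1084 and 822 normalised counts in A, B and C of 72 h, against 596, 545 and 497 in A, B and C of 30 h. Even the lowest 72 h library was above the highest of 30 h. The gene averaged 943 ± 132 at 72 h and 546 ± 49.5 at 30 h (SD, n = 3 each), with a log2 fold change of 0.78 ± 0.106 (SE) and adjusted p = 0.000338. NEK2 had 112, 156 and 61.9 at 72 h, against 490.3, 385 and 368 at 30 h, and its log2 fold change was -1.99 ± 0.343 (SE, adjusted p = 0.00462). CEP68, the other CEP gene of the linker, had 107, 135 and 125 at 72 h, against 106, 102 and 119 at 30 h, overlapped and was not called (log2 fold change 0.16, adjusted p = 0.343). Exons of CEP68 overlap those of the abundant gene RAB1A on the opposite strand over 8.78% of their length.

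Among 24 other genes of appendages, linker and satellites, 12 fell (50%, background 25.0%), 2 rose (8.33%, background 23.6%) and 10 were not called. Their median log2 fold change was -0.28. Besides NEK2 and SCLT1, the satellite gene CCDC14 (-0.84) and the subdistal appendage gene CCDC68 (-0.82) were those with the largest falls. TTBK2 and FGFR1OP were the 2 that rose, TTBK2 at 0.37 and named after its value was seen.

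The 9 CEP genes of satellites and the cilium gave 4 falls (44.4%, background 25.0%), 0 rises (background 23.6%) and 5 genes not called. CEP290, a gatekeeper of the cilium's transition zone whose mutation causes ciliopathies (chromosome 12, 88049014 to 88142216), had 438, 488 and 481 normalised counts at 72 h, against 872, 735 and 681 at 30 h. The groups stood well apart, and the log2 fold change was -0.69 ± 0.0947 (SE, adjusted p = 0.00027). CEP78, a centriole protein whose loss causes a cone-rod disease of the eye with deafness, had 429, 396 and 322 at 72 h, against 685, 677 and 561 at 30 h (log2 fold change -0.75, adjusted p = 0.000856). CEP72, a satellite protein, had 31.7, 46.2 and 34.6 at 72 h, against 65.3, 64.0 and 58.0 at 30 h (log2 fold change -0.74, adjusted p = 0.00922). Every 72 h value of CEP78 and of CEP72 was below every 30 h value.

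Among the satellite and cilium genes not called, CEP41, which supports tubulin modification in the cilium, had a log2 fold change of -0.13 and the satellite gene CEP131 had -0.07. CEP162, which links the transition zone to the axoneme, had -0.04, while CEP350 is given above. CEP41 passed the threshold without both libraries of letter C (-0.26, adjusted p = 0.0262). CEP126, the least abundant member, had 31.7, 14.8 and 33.6 at 72 h, against 26.3, 29.5 and 39.0 at 30 h, and its log2 fold change of -0.30 had a standard error of 0.318 and was not called (adjusted p = 0.469).

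Genes of primary cilium transport and its transition zone, as a wider list, were evenly divided. Of 43 tested, 8 fell, 9 rose and 26 were not called, a share of 18.6% lower and 20.9% higher against backgrounds of 25.0% and 23.6%, with a median log2 fold change of 0.09. KIFAP3, a subunit of the kinesin that carries cargo into the cilium, had 231, 242 and 246 normalised counts at 72 h, against 521, 551 and 575 at 30 h (log2 fold change -1.19, adjusted p = 2.75e-06). The transition zone genes B9D1 and B9D2 and the transport gene IFT43 rose, at 1.07, 0.86 and 1.01. Without both libraries of letter C, 14 of the list rose.

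The 4 remaining CEP genes gave 1 fall (25%, background 25.0%), 1 rise (25%, background 23.6%) and 2 genes not called. CEP112 (chromosome 17, 65635538 to 66192084) had 56.2, 59.3 and 54.5 normalised counts at 72 h, against 153, 131 and 112 at 30 h. The 72 h values were close together and all below those of 30 h, with a log2 fold change of -1.19 ± 0.150 (SE, adjusted p = 0.000164). CEP95 (ENSG00000258890.6, chromosome 17, 64506588 to 64542461) had 269, 233 and 252 at 72 h, against 189, 167 and 183 at 30 h, without overlap. It averaged 251 ± 18.0 at 72 h and 179.7 ± 11.7 at 30 h (SD, n = 3 each), a log2 fold change of 0.48 (adjusted p = 0.00317). Exons of CEP95 overlap those of DDX5 and SMURF2 on the opposite strand over 6.29% and 2.08% of their length. DDX5 averaged 10587 ± 437 at 72 h and 10327 ± 248 at 30 h and was not called, and SMURF2 averaged 3689 ± 481 at 72 h and 6959 ± 749 at 30 h and fell (SD, n = 3 each). CEP70, which binds gamma-tubulin, was not called (log2 fold change -0.28, adjusted p = 0.104).

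Pairs of genes with related sequence gave different values. CEP85L, the relative of CEP85, had 297, 257 and 240.2 normalised counts at 72 h, against 232, 247 and 249 at 30 h, overlapped and was not called (log2 fold change 0.12, adjusted p = 0.349). CEP57L1, the relative of CEP57, carries a final digit and so lies outside the 33. It had 119.6, 144 and 112 at 72 h, against 300.2, 284 and 213 at 30 h, a log2 fold change of -1.07 ± 0.150 (SE, adjusted p = 0.000311). The difference in fold within each pair was not tested, and the split of reads between relatives is uncertain.

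Levels were then compared between genes per kilobase of annotated exon. CEP170 was the most abundant at both times, with 409 normalised counts per kilobase at 72 h and 548 at 30 h. CEP55 was at rank 3 at 72 h with 87.5 and at rank 2 at 30 h with 350.0. CEP250 had 57.9 per kilobase at 72 h, rank 7 of 33, and 33.5 at 30 h, rank 20. CEP128 had 12.0 at 72 h, rank 29, and 33.8 at 30 h, rank 19. CEP126 was lowest at both times, with 3.26 at 72 h and 3.86 at 30 h. Exon lengths pool all annotated transcripts, so levels of genes with many retained introns are understated. Summed over the 33 genes, normalised counts lay between 14165 and 14744 in the 72 h libraries, against 17189.6 to 19499 in the 30 h libraries, and CEP170 alone made up 28.2% to 33.5% of the sum at 72 h and 30.9% to 33.4% at 30 h. Without CEP170 the sum lay between 9425 and 10589 in the 72 h libraries, against 11877 to 13084 in the 30 h libraries.

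**Figure D3:**
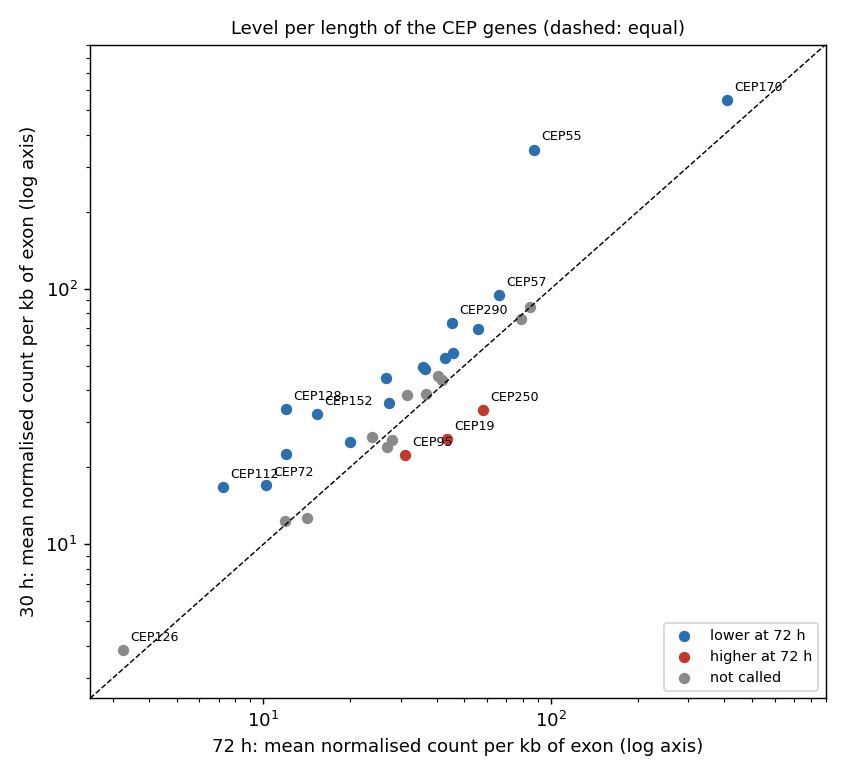
Mean normalised count per kilobase of exon of the CEP genes reported one by one at 72 h (horizontal, log axis) and at 30 h (vertical, log axis), with the dashed line at equal levels. CEP170 lies alone at the top right, CEP55 far above the line, and CEP250, CEP19 and CEP95 below it.

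Most augmin subunits were lower, while genes of the pericentriolar material and gamma-tubulin complexes went in both directions. Of 7 augmin subunits tested, which branch microtubules in the spindle, 5 fell (71.4%, background 25.0%) and 0 rose (background 23.6%). HAUS3 and HAUS6 were not called, and the median log2 fold change was -0.76. HAUS5 had 46.0, 46.2 and 45.1 normalised counts at 72 h, against 119.9, 108 and 109 at 30 h (log2 fold change -1.27, adjusted p = 6.06e-05). HAUS4 (-0.996), HAUS8 (-0.87) and HAUS2 (-0.76) also fell. Of 23 genes of the pericentriolar material and the gamma-tubulin complexes, 11 fell (47.8%, background 25.0%), 3 rose (13.0%, background 23.6%) and 9 were not called. Their median log2 fold change was -0.23. The 11 that fell included TACC3 (-1.15) and WDR62 (-1.02), which act at spindle poles, and TUBGCP4 (-0.54), a gamma-tubulin complex subunit, while NINL (0.60) and NIN (0.38), centrosomal anchors of microtubules, and TUBGCP6 (0.26), a gamma-tubulin complex subunit, rose. TUBGCP6 lost its call without 72 h replicate A or 30 h replicate C, with an adjusted p of at most 0.0627 when 1 library was left out. Its call was also lost with DESeq2, without both libraries of letter C and in the authors' deposited statistics (highest adjusted p = 0.0759). Gamma-tubulin itself, TUBG1, was not called (-0.23, adjusted p = 0.0514). TACC3 lost its call without 30 h replicate B and with no filter on low values (highest adjusted p = 0.0726), and WDR62 lost it without 30 h replicate A or 30 h replicate B (highest adjusted p = 0.0548).

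Of 15 spindle and mitosis genes, 14 fell (93.3%, background 25.0%), 0 rose (background 23.6%) and 1 was not called. Their median log2 fold change was -1.44. The 4 named by size were ASPM (-1.80), CCNB2 (-1.64), TPX2 (-1.63) and PLK1 (-1.62), and CDK1 was the gene not called (-0.84, adjusted p = 0.0738). The number that fell was 9 without 30 h replicate B, 9 without 30 h replicate C, and 7 with no filter on low values. CEP55 fell further than any of these 15 genes in the fitted log2 fold change, whereas 14 of the 18 CEP genes that fell did so by less than 2-fold.

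**Figure D4:**
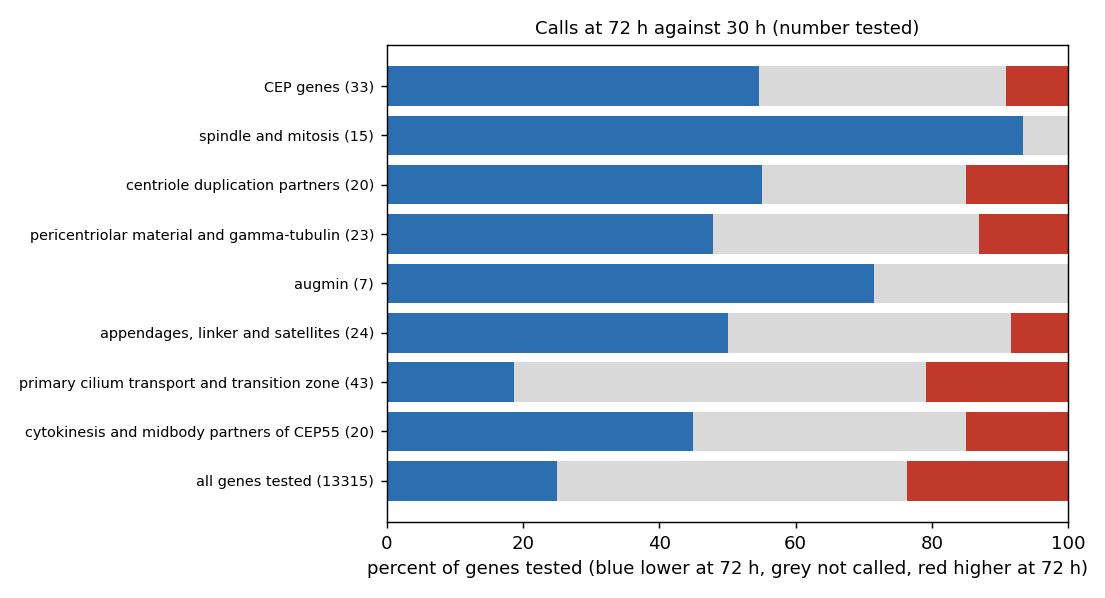
Share of genes tested that were lower at 72 h (blue), not called (grey) or higher at 72 h (red) for the CEP genes, the partner lists and all genes tested, with the number tested in brackets. Lower calls make up 54.5% of CEP genes and 25.0% of all genes tested, and the cilium list is near the background.

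Promoter windows of the CEP genes were searched for motifs of cell cycle genes. The CHR element, bound by the DREAM and MuvB complexes, was searched as TTTGAA or TTCGAA, the E2F site as TTTCCCGC, TTTGGCGC or TTTCGCGC, and the CCAAT box, bound by NF-Y, as CCAAT, each on both strands. Windows of 300 bases (250 before to 50 after the RefSeq start, GRCh38.p14) were matched for 30 of the 33 genes. A CHR match was in 12 of 30 CEP promoters (40.0%), in 11.2% of the 9670 promoters of genes tested and in 16.6% of all 27305 promoters. It was in 9 of 16 promoters of genes that fell, 3 of 12 of genes not called and 0 of 2 of genes that rose. E2F matches were in 4 of 30 (13.3%), against 4.62% of genes tested and 2.79% of all promoters, and a CCAAT box in 16 of 30 (53.3%), against 36.8% and 35.7%. By call, E2F matches were in 3 of 16 promoters of genes that fell, 1 of 12 not called and 0 of 2 that rose. A CCAAT box was in 8 of 16 that fell, 7 of 12 not called and 1 of 2 that rose. No CHR or E2F match in these 30 windows overlapped a match of another motif. For 7 of the 30 genes, CEP128, CEP112, CEP97, CEP70, CEP164, CEP41 and CEP95, the whole window lies inside the gene span of the deposited table, so it does not cover the most upstream annotated start. A match is a run of letters, not a shown binding site, and no test was made of these shares.

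The promoters of 3 genes that fell and 1 that rose are shown as examples, chosen by their matches. Among genes not shown that fell, CEP128, CEP112, CEP170 and CEP83 have no match to any motif searched. Capitals mark CHR and E2F matches, and each sequence runs 5′ to 3′ on the gene's own strand. CEP55 (chr10:93496362-93496661, plus strand) has 2 CHR matches with a CCAAT box between them. In CEP152 (chr15:48811020-48811319, minus strand) a single CHR match follows both CCAAT boxes. CEP57 (chr11:95789764-95790063, plus strand) has an E2F match shortly before a CHR match. CEP95 (chr17:64506727-64507026, plus strand), which rose, has a CCAAT box and no match to the other motifs, in a window that starts downstream of the deposited gene start.
CEP55: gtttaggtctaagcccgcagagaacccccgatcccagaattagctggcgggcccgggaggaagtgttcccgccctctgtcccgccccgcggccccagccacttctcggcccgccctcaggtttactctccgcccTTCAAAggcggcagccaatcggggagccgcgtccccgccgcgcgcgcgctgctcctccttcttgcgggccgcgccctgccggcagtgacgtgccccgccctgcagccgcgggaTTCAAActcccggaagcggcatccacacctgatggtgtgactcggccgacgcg
CEP152: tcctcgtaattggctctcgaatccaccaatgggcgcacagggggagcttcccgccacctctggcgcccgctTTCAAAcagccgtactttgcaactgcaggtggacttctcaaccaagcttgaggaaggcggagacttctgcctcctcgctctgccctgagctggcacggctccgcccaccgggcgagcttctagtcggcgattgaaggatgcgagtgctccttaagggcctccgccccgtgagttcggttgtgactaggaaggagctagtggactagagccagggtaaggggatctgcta
CEP57: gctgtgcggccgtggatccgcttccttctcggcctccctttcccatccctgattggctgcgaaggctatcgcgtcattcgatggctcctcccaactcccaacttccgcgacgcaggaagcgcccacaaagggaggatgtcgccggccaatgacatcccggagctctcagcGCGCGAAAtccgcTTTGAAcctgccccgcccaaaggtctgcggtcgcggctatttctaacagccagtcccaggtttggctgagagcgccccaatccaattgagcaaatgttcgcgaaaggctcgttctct
CEP95: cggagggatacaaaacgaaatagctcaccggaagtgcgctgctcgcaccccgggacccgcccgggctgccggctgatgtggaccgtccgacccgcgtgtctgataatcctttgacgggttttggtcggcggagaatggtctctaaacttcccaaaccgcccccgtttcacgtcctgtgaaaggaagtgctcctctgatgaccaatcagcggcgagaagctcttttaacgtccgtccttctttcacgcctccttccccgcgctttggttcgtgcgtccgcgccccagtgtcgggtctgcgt

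**Figure D5:**
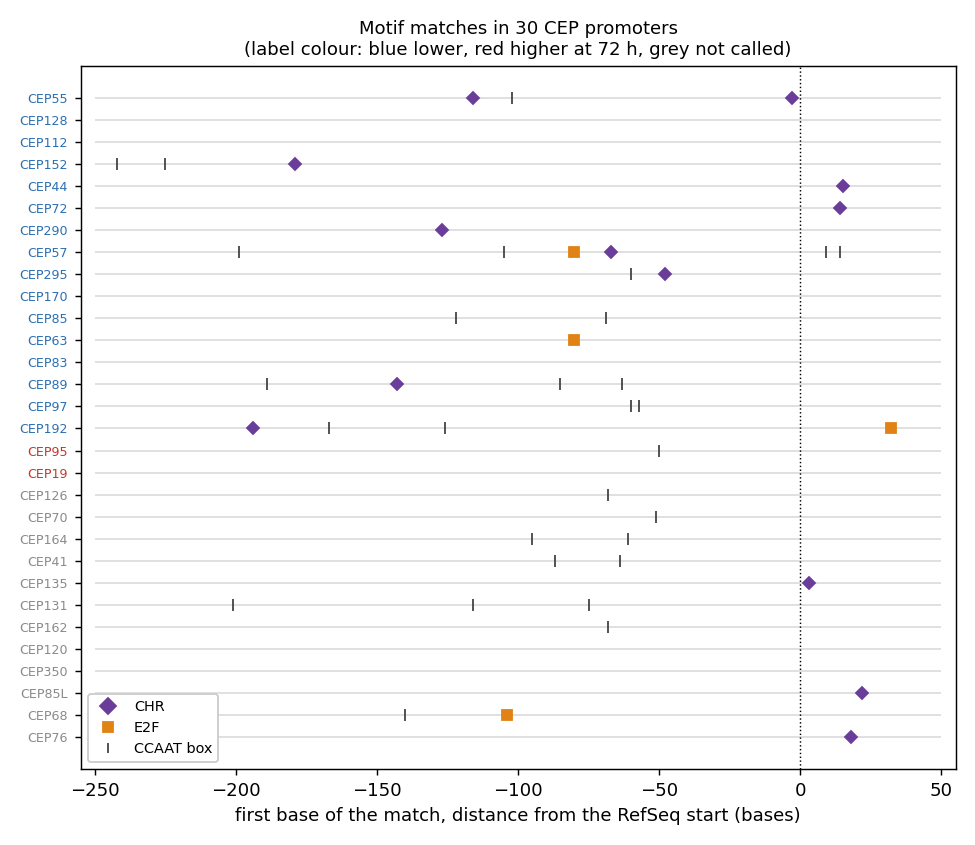
First base of each motif match relative to the RefSeq start (base 0) in the 30 matched CEP promoters, with genes that fell at the top, then genes that rose, then genes not called. CHR matches (diamonds) appear in 9 of the 16 upper rows and none of the 2 rows of genes that rose.

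The 33 genes lie on 17 chromosomes and span 6017 to 556547 bases, with a median gene length of 78708 bases, against 30647 over all genes tested. Their median level was 315 normalised counts, against 341 over all genes tested. In the authors' deposited table, 16 of the 33 were lower and 3 higher at an adjusted p under 0.05, where 16.9% of the 17065 genes with an adjusted p there were lower and 15.4% higher. CEP83 did not pass in the authors' deposited table.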

How the data were processed

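Per the labels' protocols, sequencing libraries came from total RNA with a KAPA mRNA kit. Per the submitters' processing notes, Trimmomatic 0.35, STAR 2.5.1b, GRCh38 (hg38) and DESeq2 1.18.1 were used. No source used here names the read counter, the annotation or the strand setting. The deposited signal values are reads per gene scaled by the authors with 1 size factor for each library. Reads were recovered from them, and 100% of values came out whole within 0.01. The log2 fold changes, score (Wald statistic) and p-values in the deposited table are the authors' own and served as an alternative. Columns of per-sample values left out numbered 0.

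Values were compared with limma 3.58.1 (trend, robust) in R 4.3.3 after adding 1. Alternatives used edgeR 4.0.16 and DESeq2 1.42.0 on the recovered reads, other pseudocounts, filters and scalings, and omitted libraries. The limma step was also run on simulated reads, with few changed genes and independent libraries. The real data had many calls and C libraries set apart, so that run does not show how reliable the calls are. The pairing by letter was not used in the main fit, because correlations of deviations were 0.00696, 0.172 and 0.185 for A, B and C, not all above 0.1. The libraries of letters B and C thus deviated together in part, and a fit with the letter as a replicate block is among the alternatives. The rule for the members uses gene names alone, but the choice of this family, and of the role groups, lists and motifs, was made with earlier results of these data known. Full values are given for the 16 called members with the largest change and for related pairs, and up to 4 called genes per partner list with a mean of at least 50, with MKI67 and CCNA2 in any case. Coordinates are those of the deposited table. GENCODE 29, with the same coordinates for 31 of 33 members, gave exon lengths and overlaps, and promoter sequences are from RefSeq. Spread between libraries of a group exceeded counting error, with a chi-square of reads per degree of freedom of 3.34 to 16.3. The values of 1 member are counted in the totals and not reported here.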

Additional observations from a re-analysis of the deposited data

How the results depend on the processing

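Over 16 alternatives the number of CEP genes that fell was 13 to 18 and the number that rose was 3 in each. Leaving out single libraries gave 13 to 18 falls, edgeR gave 18 and DESeq2 16. The median log2 fold change of the 33 genes was -0.35 to -0.28. Of the 21 called genes, 16 kept their call in every alternative run (13 lower and 3 higher), and 5 lost it at least once, among them CEP85, CEP83, CEP89 and CEP192. The replicate block gave 17 falls and 3 rises. Signs turned for 5 genes not called. With quantile normalisation CEP120 was at 0.031. With single libraries left out, CEP126 ranged from -0.50 to 0.063, CEP131 from -0.17 to 0.0074 and CEP162 from -0.12 to 0.022. CEP120 ranged from -0.075 to 0.028 and CEP350 from -0.0056 to 0.083 in the same runs. Without both libraries of letter C, CEP131 turned to 0.031, while CEP350 kept its positive sign at 0.099. The cause of these changes was not tested. Over all genes, 3144 rose and 3328 fell, against 2529 to 3501 and 2689 to 3619 over the alternatives. Over the partner lists together, 20 rose and 70 fell, against 14 to 26 and 56 to 72. The omission of both libraries of letter C was chosen after the data were seen. CEP126 had the fewest reads of the members, 17 to 37 per library, and the part of depth in its standard error was not tested.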
